A study of Homo sapiens with 32 samples.

Results

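Keratin mRNA was followed across 4 human endometrial cancer cell lines for 10 keratin genes chosen by name: the simple-epithelial keratins KRT7, KRT8, KRT18 and KRT19, the basal and squamous keratins KRT5, KRT6A, KRT13 and KRT17, and KRT80 and KRT81. They are 10 of 35238 genes in the deposited table and 10 of the 17011 genes tested, and the table lists 56 other keratin symbols. The lines were Ishikawa, labelled wild-type for CTNNB1 (the gene of beta-catenin), and Ishikawa-S33Y, SNGM and HEC265, each labelled CTNNB1-mutated. Ishikawa-S33Y is an Ishikawa derivative named for a beta-catenin substitution; whether it is 1 clone or a pool is not given in the sources used here. Each line received vehicle (0.1% DMSO), paclitaxel, the CDC-like kinase inhibitor SM08502, or both drugs (the combination) for 24 h, with 2 libraries in each of the 16 groups. Paclitaxel was given at 11 nM to Ishikawa, 6 nM to Ishikawa-S33Y, 11.7 nM to SNGM and 5.6 nM to HEC265, and SM08502 at 80, 85, 350.7 and 149 nM in the same order, each the IC50 (the inhibitory concentration for viability) of that line. Dose therefore differed by line, as did RNA input (350 ng for Ishikawa and 500 ng for the others), and both are confounded with line and cannot be told apart from it. Cells were plated in duplicate and no label says that replicates are separate experiments, so p-values measure only the spread between these libraries.

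Keratins build intermediate filaments from pairs of 1 acidic (type I) and 1 basic (type II) chain. KRT8 (type II) with KRT18 (type I) is the founding pair of simple epithelia, and glandular epithelium of the endometrium adds KRT7 (type II) and KRT19 (type I). KRT5 (type II) belongs to the basal layer of stratified epithelium, KRT13 (type I) to the upper layers of non-cornified squamous epithelium, and KRT6A (type II) and KRT17 (type I) to activated or wounded epithelium. KRT80 is a type II epithelial keratin and KRT81 a type II hair keratin. Squamous, or morular, differentiation in endometrial carcinoma is known for its association with beta-catenin mutation.

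All 10 genes passed the filter of more than 1 CPM, reads per 1000000 counted, in at least 2 libraries. KRT13 passed through 5 libraries, all of HEC265, KRT81 through 10 (the 8 of HEC265 and 2 of SNGM with paclitaxel) and KRT5 through 12, all of the Ishikawa lines. These were tested because of the groups where they were high. The differences of KRT5, KRT13 and KRT81 are therefore given as descriptions, and so is any adjusted p printed for them. KRT6A passed through 24 libraries, none of SNGM. KRT17 passed through 25, and the only one of SNGM, combination replicate 2, held 3 reads. Differences of KRT6A and KRT17 from SNGM, and their F tests across lines, are descriptions as well. Counts of called keratins include all these genes on that basis. By RefSeq annotation (GRCh38.p14), KRT7, KRT8, KRT18, KRT5, KRT6A, KRT80 and KRT81 lie on chromosome 12 and KRT19, KRT13 and KRT17 on chromosome 17. KRT8 (chr12:52897191-52949860) overlaps KRT18 (chr12:52948855-52952906) in that table, and KRT81 (chr12:52285913-52291534) lies inside the span of KRT86. The strand and annotation used for counting are not given in the sources used here, so reads of overlapping genes may be split or shared. Reads on 50 KRT8 pseudogenes summed to 0.455% to 6.73% of the KRT8 level in a library, and those on 67 KRT18 pseudogenes to 0.758% to 4.01% of KRT18. The 8 KRT17 pseudogenes summed to 0.158 to 1.34 CPM, which exceeded KRT17 itself in most SNGM libraries. KRT6B and KRT6C, near-identical copies of KRT6A, reached at most 0.863 and 0.154 CPM.

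The RefSeq promoter table held 2 of the 10 genes, KRT8 and KRT5. They are a simple and a basal type II keratin, and are shown because no other of the 10 had an entry. Both run from 250 bases before to 50 bases after the transcription start listed there (minus strand, KRT8 at chr12:52926420-52926719 and KRT5 at chr12:52520345-52520644). The KRT8 window lies inside the annotated span of KRT8 (chr12:52897191-52949860) and not at its upstream end. It therefore does not cover a start at that end. Matches to CANNTG, the E-box, are in capitals.
KRT8: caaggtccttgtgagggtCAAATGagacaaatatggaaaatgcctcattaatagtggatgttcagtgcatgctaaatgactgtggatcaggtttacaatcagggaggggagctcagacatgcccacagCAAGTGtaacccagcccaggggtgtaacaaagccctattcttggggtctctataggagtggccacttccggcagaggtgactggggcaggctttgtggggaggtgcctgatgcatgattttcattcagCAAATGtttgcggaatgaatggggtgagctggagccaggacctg
KRT5: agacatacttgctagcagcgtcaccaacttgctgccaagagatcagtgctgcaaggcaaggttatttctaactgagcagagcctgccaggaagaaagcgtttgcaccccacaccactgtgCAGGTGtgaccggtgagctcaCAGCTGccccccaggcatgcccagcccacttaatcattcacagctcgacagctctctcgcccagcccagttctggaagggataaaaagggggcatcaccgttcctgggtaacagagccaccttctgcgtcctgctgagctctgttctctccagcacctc
The KRT8 window held 3 E-box matches, at -232, -122 and 7 bases from the start, and the KRT5 window held 2, at -130 and -109. An E-box is a common match, present in 68.7% of 35116 promoter windows of the same length. Neither window held TATAAA (in 11.5% of windows), GGGCGG (the GC box, 45.0%), TGANTCA (the AP-1 motif, 7.71%) or CTTTGAT (the TCF/LEF motif, 2.62%) on either strand. No 2 matches overlapped.

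Depth was 13.03 to 34.1 M (1000000 reads) in 30 libraries. The others were Ishikawa-S33Y combination replicate 2, at 2.99 M, and SNGM combination replicate 2, at 1.61 M, where 3 reads are worth 1.00 and 1.87 CPM. Epithelial identity was present on vehicle: EPCAM, an epithelial adhesion protein, averaged 141 to 284 CPM, and CDH1, E-cadherin, 192 to 569 CPM across the lines. SNGM had SOX17, a glandular transcription factor, at 0, and GRHL2, an epithelial transcription factor, at 0.973 ± 0.157 CPM (SD, n = 2). ESR1, the estrogen receptor, was at 0.083 ± 0.008 CPM in HEC265. VIM, the mesenchymal filament vimentin, was at 380 ± 1.63, 936 ± 21.6, 1850 ± 45.5 and 1.05 ± 0.158 CPM in Ishikawa, Ishikawa-S33Y, SNGM and HEC265 (SD, n = 2). VIM made up most of the SNGM sum: CDH2, N-cadherin, was at 0.089 ± 0.081 CPM there against 268 ± 0.972 in Ishikawa, 144 ± 6.26 in its derivative and 236 ± 2.28 in HEC265, and COL1A1, a fibrillar collagen, at 1.70 ± 0.242 CPM in SNGM against 1144.5 ± 18.7 in Ishikawa-S33Y. The 11 mesenchymal markers summed to 439 to 897 CPM in Ishikawa, 138 to 255 in HEC265, 1758 to 2300 in SNGM and 1557 to 2336 in Ishikawa-S33Y, and 3 leukocyte markers to at most 2.67 CPM in any library. Ribosomal protein genes took 4.13% to 7.13% of reads in Ishikawa libraries against 2.58% to 4.71% in the others, and PLCG2 took 2.35% to 6.38% against 0.530% to 1.34%; their part in the differences between lines was not tested. In bulk RNA, fewer cells of a type and less RNA per cell cannot be told apart.

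The lines differed first in the KRT8 and KRT18 pair. KRT8 stood at 450 and 423 CPM in the Ishikawa vehicle libraries, 1616 and 1545 in those of Ishikawa-S33Y, 174 and 166 in those of SNGM, and 934 and 904 in those of HEC265. KRT18 stood at 239 and 211, 747 and 787, 122 and 114, and 457 and 464 CPM in the same order. For both genes the order was Ishikawa-S33Y, HEC265, Ishikawa and SNGM, and no libraries of neighbouring lines overlapped. On log2(CPM + 1), the scale of every difference below, KRT8 was higher in Ishikawa-S33Y than in Ishikawa by 1.85 ± 0.17 (SE; adjusted p = 2.1e-08) and KRT18 by 1.76 ± 0.11 (adjusted p = 7.3e-11). Every other pair of lines differed in both genes as well (adjusted p 0.00043 or smaller).

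KRT7 and KRT81 were HEC265 keratins. KRT7 stood at 248 and 259 CPM in HEC265, against 19.4 and 15.6 for Ishikawa, 5.32 and 6.58 for Ishikawa-S33Y, and 4.41 and 4.66 for SNGM. HEC265 exceeded SNGM by 5.53 ± 0.21 (adjusted p = 1.7e-15), and Ishikawa-S33Y lay below its parent by -1.41 ± 0.21 (adjusted p = 1.6e-05); Ishikawa-S33Y against SNGM did not pass the test. KRT81 stood at 65.9 and 66.4 CPM in HEC265 and between 0.077 and 0.479 CPM in the 6 vehicle libraries of the other lines. Its difference from Ishikawa was 5.86 ± 0.21, and no pair of the other lines passed the test. KRT86, whose span holds KRT81, reached no more than 3.07 CPM in any library.

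KRT19 and KRT80 were detected at over 60 CPM on vehicle in every line. KRT19 stood at 249 and 266 CPM in HEC265, 131 and 111 in SNGM, 110 and 109 in Ishikawa-S33Y, and 103 and 76.2 in Ishikawa. HEC265 was above each other line (log2 differences 1.09 to 1.53), while Ishikawa-S33Y and Ishikawa did not pass the test (0.31). SNGM exceeded Ishikawa by 0.44 ± 0.15 (adjusted p = 0.012), which was lost without Ishikawa replicate 2 (adjusted p = 0.246) or SNGM replicate 1 (adjusted p = 0.121). KRT80 ranged only from 67.5 to 118 CPM on vehicle, and HEC265 against SNGM (0.71 ± 0.22, adjusted p = 0.010) was the only pair to pass. That call was lost without SNGM replicate 2 (adjusted p = 0.0559) or HEC265 replicate 1 (adjusted p = 0.0661).

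The squamous and basal keratins were highest in the CTNNB1 wild-type line for KRT5 and KRT17, and in HEC265 for KRT13. KRT5 stood at 9.13 and 6.83 CPM in Ishikawa, at 2.91 and 3.06 for Ishikawa-S33Y, at 0.128 and 0.234 for SNGM, and at 0.312 and 0.309 for HEC265. KRT17 stood at 34.8 and 26.6, 6.06 and 5.32, 0.415 and 0.205, and 7.30 and 8.49 CPM. In Ishikawa-S33Y, KRT17 was lower than in Ishikawa by -2.23 ± 0.28 (adjusted p = 1.6e-06) and KRT5 by -1.16 ± 0.18 (adjusted p = 2.7e-05); with a pseudocount of 0.1 in place of 1 the KRT5 call was lost (adjusted p = 0.0915). HEC265 against SNGM did not pass for KRT5 (0.15, 95% interval -0.23 to 0.54); the vehicle libraries held 15 and 12 KRT5 reads in all.

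KRT6A stood at 4.75 and 5.53 CPM in Ishikawa, 5.56 and 5.37 in HEC265, and 3.40 and 4.32 in Ishikawa-S33Y, and no pair of these 3 lines passed the test. SNGM gave 1 KRT6A read in its vehicle libraries together. The ratio of HEC265 to SNGM, as pooled reads over pooled depth, was 357, with a 95% exact interval of 63.6 to 14162 that covers counting error only. KRT13 stood at 2.49 and 1.93 CPM in HEC265 and at or below 0.802 CPM in each vehicle library of the other lines. The mean of HEC265 lay above that of Ishikawa in KRT13 by 1.06 ± 0.16. A lower KRT13 in SNGM than in Ishikawa (-0.47, adjusted p = 0.015) did not hold under median re-centring (adjusted p = 0.0595) or quantile normalization (adjusted p = 0.259), nor without Ishikawa replicate 1 (adjusted p = 0.268) or SNGM replicate 1 (adjusted p = 0.059).

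**Figure D1:**
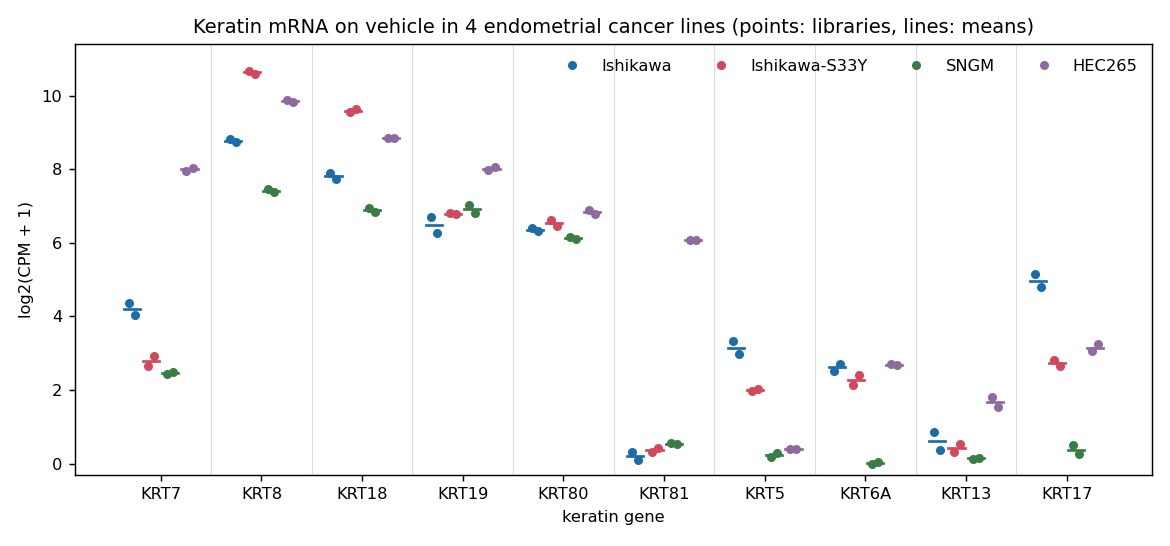
Levels of the 10 keratins as log2(CPM + 1) in the vehicle libraries of each line, with points for the 2 libraries and short lines for their means. KRT8 and KRT18 are highest in Ishikawa-S33Y, KRT7 and KRT81 in HEC265, and KRT5 and KRT17 in Ishikawa, while KRT6A is at 0 or near it in SNGM.

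Counted over the genes, 5 of 10 keratins differed between Ishikawa-S33Y and Ishikawa on vehicle, 2 higher and 3 lower, where 48.3% of all tested genes were called. SNGM differed from Ishikawa in 8 (1 higher, 7 lower, or 2 and 6 under median re-centring or quantile normalization; 66.8% of all genes) and HEC265 from Ishikawa in 8 (6 higher, 2 lower; 63.3%). SNGM differed from Ishikawa-S33Y in 5, all lower (60.8%), HEC265 from Ishikawa-S33Y in 7 (4 higher, 3 lower; 58.0%), and HEC265 from SNGM in 9, all higher (54.9%). The median keratin difference was -1.14 for SNGM and 1.04 for HEC265 against Ishikawa, where the median over all genes was -0.13 and -0.17. The share of keratins called was near that of all genes in Ishikawa-S33Y against Ishikawa, and the other pairs of lines differed in most genes.

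The reads of the 10 keratins split differently in each line. No transcript lengths were used, so a share is compared only between libraries, for the same gene. KRT8 and KRT18 together took 91.4% ± 0.194 of the 10 genes' reads in Ishikawa-S33Y, 74.1% ± 1.55 in Ishikawa, 66.1% ± 0.692 in HEC265 and 59.5% ± 0.945 in SNGM (SD, n = 2). The 10 genes summed to 2569 ± 29.5, 894 ± 71.4, 2086 ± 3.88 and 483 ± 27.4 CPM in the same order. KRT19 took 25.0% ± 1.39 of the reads in SNGM but 4.27% ± 0.006 in Ishikawa-S33Y, and KRT7 took 12.2% ± 0.396 in HEC265 and at most 2.06% in any vehicle library of the other lines. KRT5, KRT6A, KRT13 and KRT17 together took 4.95% ± 0.412 in Ishikawa, 0.762% ± 0.016 in HEC265, 0.502% ± 0.021 in Ishikawa-S33Y and 0.127% ± 0.001 in SNGM. The number of KRT8 reads per KRT18 read, which shares its length terms across libraries, was 1.94 ± 0.083, 2.06 ± 0.140 and 2.0 ± 0.066 in Ishikawa, Ishikawa-S33Y and HEC265, and 1.44 ± 0.023 in SNGM.

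**Figure D2:**
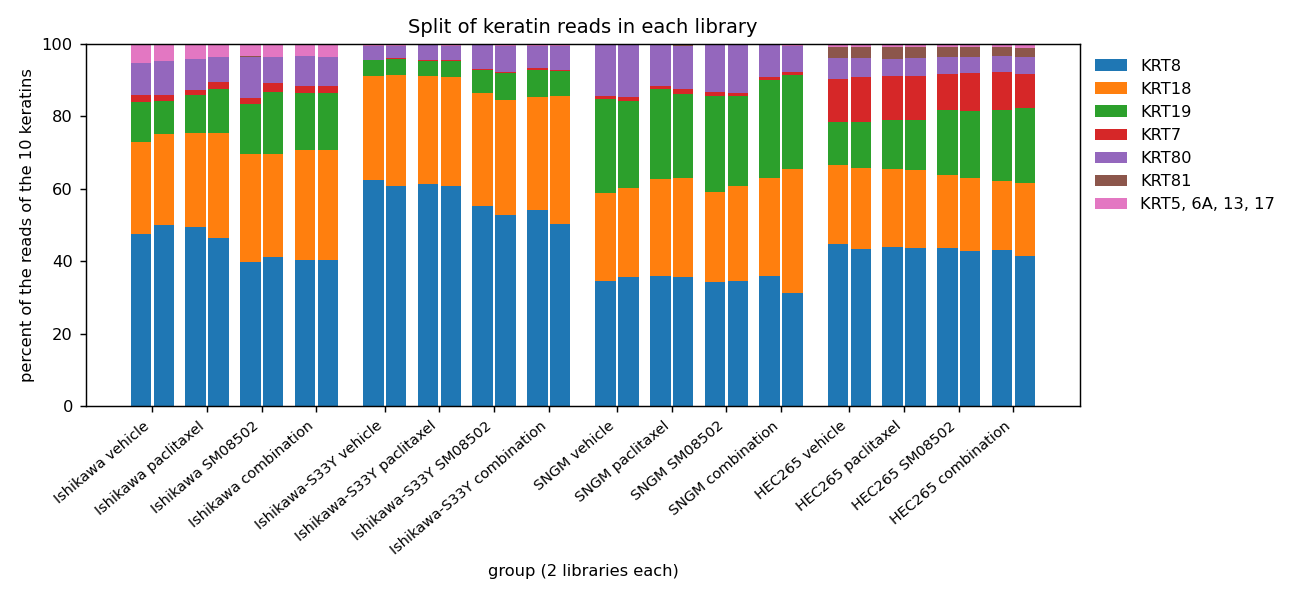
Percent of the summed reads of the 10 keratins taken by each gene, with the 4 squamous and basal keratins joined, in each of the 32 libraries. KRT8 and KRT18 take 91.4% on vehicle in Ishikawa-S33Y and 59.5% in SNGM, and the KRT19 share is larger with SM08502 than with vehicle in Ishikawa, Ishikawa-S33Y and HEC265.

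SM08502 lowered KRT8 and KRT18 in Ishikawa-S33Y, the line where both started highest. KRT8 read 719 and 595 CPM with SM08502 there against 1616 and 1545 on vehicle, a log2 change of -1.27 ± 0.17 (adjusted p = 1.4e-05). KRT18 read 405 and 356 CPM against 747 and 787, a change of -1.01 ± 0.11 (adjusted p = 1.7e-06). In Ishikawa, KRT8 read 293 and 274 CPM against 450 and 423, a change of -0.62 ± 0.17 (adjusted p = 0.017). This call was lost in a fit to Ishikawa alone (adjusted p = 0.197) and without Ishikawa vehicle replicate 1 (adjusted p = 0.098), vehicle replicate 2 (adjusted p = 0.0651) or SM08502 replicate 2 (adjusted p = 0.121). KRT18 in Ishikawa read 219 and 188 CPM, which overlaps the vehicle range, and the change in Ishikawa-S33Y was larger than that in Ishikawa by -0.86 ± 0.16 (test of the difference, adjusted p = 0.0058). Without Ishikawa-S33Y SM08502 replicate 2 that difference gave an adjusted p of 0.0566, and in a fit to the 2 lines alone 0.0797. KRT8 reads per KRT18 read were lower with SM08502 in 3 lines, going from 1.94 to 1.40 ± 0.081 in Ishikawa, from 2.06 to 1.72 ± 0.076 in Ishikawa-S33Y and from 1.44 to 1.35 ± 0.035 in SNGM, and higher in HEC265, at 2.14 ± 0.028 against 2.0. The libraries of the 2 treatments did not overlap in any of the 4 lines.

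KRT5 fell in the same 2 lines. In Ishikawa it read 1.27 and 1.40 CPM with SM08502 against 9.13 and 6.83 on vehicle (-1.93 ± 0.18, adjusted p = 2.2e-06). As a ratio of pooled reads over pooled depth, vehicle was 6.08 times SM08502, with a 95% exact interval of 4.40 to 8.55 for counting error. In Ishikawa-S33Y KRT5 read 0.467 and 0.790 CPM against 2.91 and 3.06 (-1.30 ± 0.18, adjusted p = 2.9e-05). Where KRT5 was low on vehicle, the ratio of SM08502 to vehicle from pooled reads was 0.772 in HEC265 (95% exact interval 0.330 to 1.77) and 0.490 in SNGM (0.135 to 1.49).

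KRT17 fell in Ishikawa-S33Y and in HEC265. In Ishikawa-S33Y it read 1.17 and 1.88 CPM with SM08502 against 6.06 and 5.32 (-1.42 ± 0.28, adjusted p = 0.00075), and in HEC265 3.30 and 2.74 CPM against 7.30 and 8.49 (-1.15 ± 0.28, adjusted p = 0.008). The HEC265 call was lost with a pseudocount of 0.1 (adjusted p = 0.0863) and without HEC265 vehicle replicate 2 (adjusted p = 0.0829) or SM08502 replicate 2 (adjusted p = 0.0894). In Ishikawa KRT17 read 19.2 and 18.2 CPM against 34.8 and 26.6, a change of -0.68 that did not pass, although the groups did not overlap. KRT13 in HEC265 read 0.759 and 0.757 CPM against 2.49 and 1.93, a difference of -0.86 ± 0.16, given as a description; with a pseudocount of 0.1 it had an adjusted p of 0.0833.

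KRT6A moved the other way in HEC265, reading 11.3 and 12.4 CPM with SM08502 against 5.56 and 5.37 on vehicle (0.99 ± 0.21, adjusted p = 0.0027). No other line passed the test for KRT6A: it stood at 4.28 and 3.47 CPM in Ishikawa and 2.86 and 3.16 in its derivative, and SNGM gave no read. KRT6A and KRT17, both activation keratins, thus changed in opposite directions in HEC265. KRT19 in HEC265 read 334 and 366 CPM against 249 and 266, a change of 0.44 ± 0.15 with an adjusted p of 0.0502, just outside the threshold. In Ishikawa-S33Y KRT19 read 83.7 and 83.8 CPM against 110 and 109, a change of -0.38 (adjusted p = 0.0558). The KRT19 share of keratin reads stood at 15.4% ± 2.39 with SM08502 in Ishikawa (vehicle 9.96% ± 1.32), 6.94% ± 0.715 in Ishikawa-S33Y (4.27%), 18.3% ± 0.396 in HEC265 (12.3% ± 0.587) and 25.7% ± 1.14 in SNGM (25.0%). KRT7 fell in Ishikawa-S33Y, from 5.32 and 6.58 to 3.97 and 2.77 CPM (-0.68 ± 0.21, adjusted p = 0.021). The KRT7 call was lost without Ishikawa-S33Y vehicle replicate 2 (adjusted p = 0.170) or SM08502 replicate 2 (adjusted p = 0.228), and in a fit to that line alone (adjusted p = 0.0769).

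Counted over the genes, SM08502 changed 5 of 10 keratins in Ishikawa-S33Y (all lower; 29.1% of all tested genes called), 3 in HEC265 (2 lower, 1 higher; 14.7%), 2 in Ishikawa (both lower; 15.2%) and 0 in SNGM (7.86%). The HEC265 split was 2 lower and 2 higher under quantile normalization. The median keratin change was -0.53 in Ishikawa-S33Y, -0.33 in Ishikawa, -0.31 in HEC265 and 0.03 in SNGM, against 0.11, 0.00, 0.07 and 0.00 over all genes. With limma voom on recovered reads, chosen after seeing the data, the 4 lines gave 16 calls in place of 10, and SNGM again gave 0. In SNGM no keratin had an unadjusted p under 0.05, where 3385 of all 17011 genes did, and the SNGM changes ran from -0.11 to 0.32. KRT5, KRT6A, KRT13, KRT17 and KRT81 were each at or below 0.479 CPM on vehicle there, which limits the size of a fall on this scale. Averaged over the lines, 6 keratins fell (KRT5, KRT7, KRT8, KRT13, KRT17 and KRT18), where 38.5% of all genes were called. The effect of SM08502 differed between lines for 7 keratins by the moderated F test (12.4% of all genes): KRT8, KRT18, KRT19, KRT5, KRT6A, KRT13 and KRT17. Of these, KRT13, KRT17 and KRT19 had adjusted p of 0.0447, 0.0403 and 0.0433 and lost the call without any one of many libraries, with adjusted p up to 0.201 (KRT13, without HEC265 vehicle replicate 1), 0.137 (KRT17, without SNGM SM08502 replicate 1) and 0.135 (KRT19, without Ishikawa-S33Y SM08502 replicate 2). KRT6A lost it without HEC265 vehicle replicate 2 (adjusted p = 0.0566) or SM08502 replicate 2 (0.0646) and with a pseudocount of 0.1 (0.0666), and KRT5 with that pseudocount (0.235) and limma voom (0.0736).

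The combination gave larger counts than SM08502, and both comparisons share the vehicle libraries. In Ishikawa-S33Y 8 of 10 keratins fell, all but KRT13 and KRT81 (42.0% of all genes called), with a median change of -0.97 over the 10 against 0.06 over all genes. KRT8 read 507 and 433 CPM (-1.75 ± 0.17, adjusted p = 1.2e-07) and KRT18 290 and 305 CPM (-1.36 ± 0.11, adjusted p = 1.4e-08). KRT19 read 71.5 and 60.5 CPM (-0.73 ± 0.15, adjusted p = 0.00049). KRT17 changed by -1.37, KRT5 by -1.72, KRT7 by -1.22, KRT6A by -0.69 and KRT80 by -0.64. Without the shallow Ishikawa-S33Y combination replicate 2, 7 of 10 fell, KRT80 being lost (adjusted p = 0.0844). The KRT80 call was also lost without vehicle replicate 1 (adjusted p = 0.139), vehicle replicate 2 (adjusted p = 0.0544) or combination replicate 1 (adjusted p = 0.0783), and with no filter on low values (adjusted p = 0.0526). The KRT6A call was lost without vehicle replicate 2 (adjusted p = 0.118) and with limma voom (adjusted p = 0.063).

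In Ishikawa the combination lowered 4 keratins (22.8% of all genes called). KRT5 read 1.40 and 1.12 CPM (-1.98 ± 0.18, adjusted p = 6.5e-07) and KRT8 257 and 242 CPM (-0.80 ± 0.17, adjusted p = 0.002). The KRT8 call was lost in a fit to Ishikawa alone (adjusted p = 0.0942). KRT17 read 16.3 and 16.2 CPM (-0.87, adjusted p = 0.031) and KRT80 52.5 and 48.4 CPM (-0.67, adjusted p = 0.034). Both were lost when any of the 4 libraries was left out: KRT17 without vehicle replicate 1 (adjusted p = 0.199), vehicle replicate 2 (0.0555), combination replicate 1 (0.113) or combination replicate 2 (0.130), and KRT80 in the same order at 0.138, 0.109, 0.0933 and 0.174. KRT80 levels in Ishikawa split within treatments as well: paclitaxel gave 78.2 and 42.6 CPM and SM08502 84.6 and 48.6 CPM for replicates 1 and 2. Ribosomal protein genes took 4.13% and 6.69% of reads in those paclitaxel libraries, 4.79% and 7.13% in those SM08502 libraries, 5.47% and 4.83% on vehicle and 6.09% and 6.48% with the combination. Their part in the KRT80 values was not tested.

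In HEC265 the combination changed 5 keratins (19.5% of all genes called), KRT6A and KRT19 rising and KRT13, KRT17 and KRT18 falling (2 rising and 5 falling under median re-centring). KRT6A read 12.1 and 17.1 CPM against 5.56 and 5.37 (1.25 ± 0.21, adjusted p = 0.00023), and its groups did not overlap. KRT19 read 368 and 362 CPM (0.50 ± 0.15, adjusted p = 0.019) and KRT18 363 and 353 CPM (-0.36 ± 0.11, adjusted p = 0.024). Both calls were lost when any of the 4 libraries was left out: KRT19 without vehicle replicate 1 (adjusted p = 0.137), vehicle replicate 2 (0.065), combination replicate 1 (0.0932) or combination replicate 2 (0.0944), and KRT18 in the same order at 0.103, 0.123, 0.0812 and 0.145. KRT17 read 3.68 and 2.96 CPM (-1.04, adjusted p = 0.011; 0.0966 without vehicle replicate 2 and 0.114 without combination replicate 2). KRT13 read 0.943 and 1.19 CPM (-0.63, as a description; adjusted p = 0.121 without vehicle replicate 1 and 0.0854 without combination replicate 1). With a pseudocount of 0.1 neither passed (KRT17 adjusted p = 0.104, KRT13 adjusted p = 0.221).

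In SNGM the combination changed 2 keratins (18.4% of all genes called). KRT18 read 152 and 146 CPM against 122 and 114 (0.34 ± 0.11, adjusted p = 0.039), and KRT80 48.4 and 30.5 CPM against 70.6 and 67.5 (-0.83 ± 0.22, adjusted p = 0.013). Without the shallow SNGM combination replicate 2 neither passed (KRT18 adjusted p = 0.104, KRT80 adjusted p = 0.239). KRT18 was also lost without vehicle replicate 1 (adjusted p = 0.0762), vehicle replicate 2 (0.222) or combination replicate 1 (0.0842), and KRT80 without vehicle replicate 1 (0.074) or vehicle replicate 2 (0.0629). Averaged over lines, 7 keratins fell (KRT5, KRT7, KRT8, KRT13, KRT17, KRT18 and KRT80; 49.1% of all genes called), KRT13 not with limma voom (adjusted p = 0.159). The combination effect differed between lines for 6 (27.1% of all genes by F test): KRT8, KRT18, KRT19, KRT5, KRT6A and KRT17, the last not with limma voom (adjusted p = 0.0873). Of the changes in Ishikawa-S33Y minus those in Ishikawa, SM08502 gave 1 call among the 10 keratins, KRT18 (2.43% of all genes). The combination gave 3 (10.5%), KRT18 (-1.10 ± 0.16, adjusted p = 0.00023), KRT8 (-0.95, adjusted p = 0.015) and KRT19 (-0.86, adjusted p = 0.012). KRT8 lost the call without Ishikawa vehicle replicate 2 (adjusted p = 0.0626), Ishikawa combination replicate 1 (0.0569), Ishikawa-S33Y vehicle replicate 1 (0.0567) or Ishikawa-S33Y combination replicate 2 (0.0632). KRT19 lost it without Ishikawa vehicle replicate 2 (adjusted p = 0.0866) or Ishikawa-S33Y combination replicate 2 (0.0551).

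**Figure D3:**
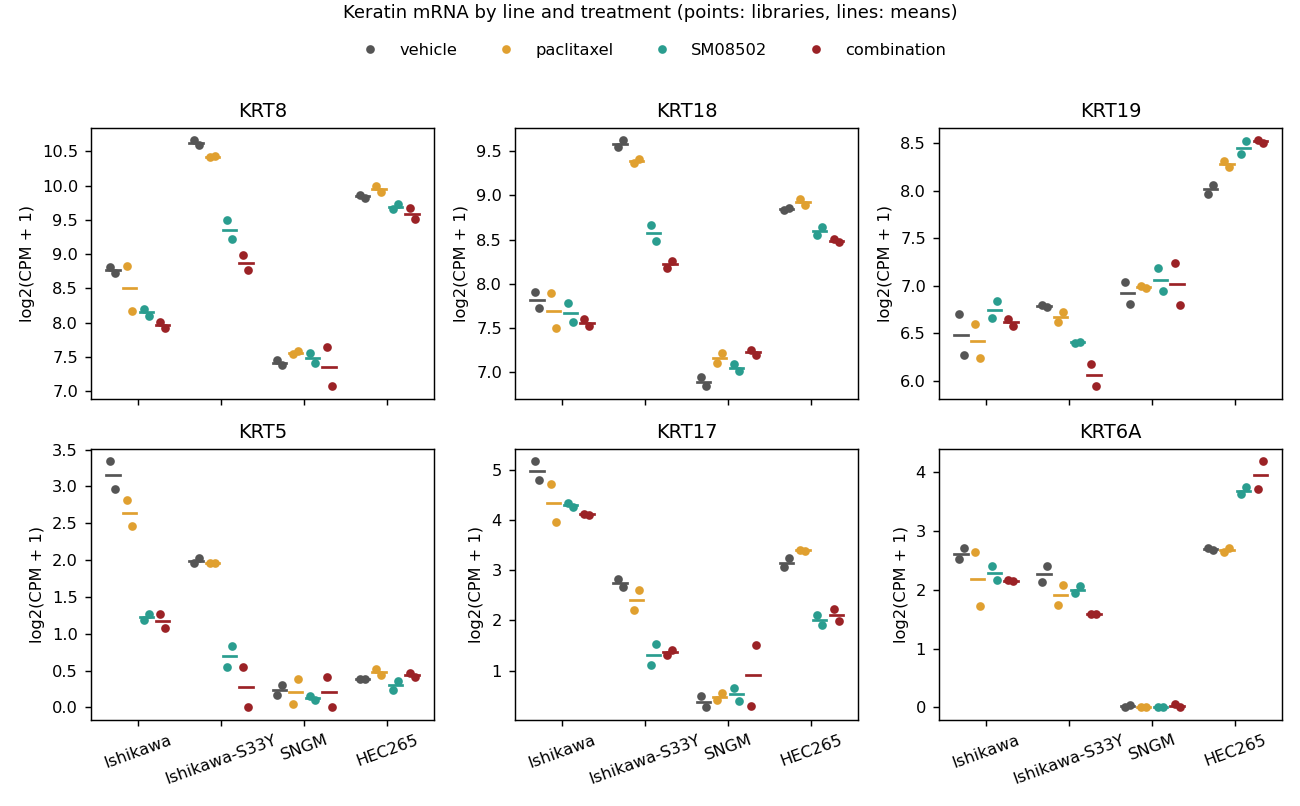
Levels of KRT8, KRT18, KRT19, KRT5, KRT17 and KRT6A as log2(CPM + 1) in every library by line and treatment, with points for libraries and short lines for group means. KRT8 and KRT18 drop with SM08502 and the combination in Ishikawa-S33Y, KRT5 drops in both Ishikawa lines, and KRT6A is higher in HEC265 with either SM08502 treatment.

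Paclitaxel alone changed no keratin in any line or in the mean of lines by limma. The share of all genes called was 0.0176% in SNGM, 0.0118% in Ishikawa, 0.00588% in HEC265, 0% in Ishikawa-S33Y and 0% in the mean of lines. An unadjusted p under 0.05 was reached by 3 keratins in Ishikawa (KRT5, KRT17 and KRT80), 2 in SNGM (KRT18 and KRT81), 0 in Ishikawa-S33Y and 0 in HEC265, and limma voom also called 0. Over all 17011 genes that unadjusted threshold was reached by 1254, 300, 122 and 158 in the same order of lines. KRT5 and KRT81 are counted here as descriptions. The largest value, 0.86 for KRT81 in SNGM, came from 1.08 and 2.38 CPM against 0.479 and 0.440. In Ishikawa the paclitaxel libraries disagreed: KRT8 read 454 and 287 CPM, and without replicate 1 the test called 3 keratins there, among them KRT6A (-0.89, adjusted p = 0.025) and KRT80 (-0.91, adjusted p = 0.034). By the F test the paclitaxel effect differed between lines for 0 keratins (0% of all genes).

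Adding paclitaxel to SM08502 changed 0 keratins against SM08502 alone by limma. The share of all genes called was 0.253% in SNGM, 0.129% in Ishikawa-S33Y, 0.00588% in HEC265 and 0% in Ishikawa. An unadjusted p under 0.05 was reached by 6 keratins in Ishikawa-S33Y, all of them lower with the combination, and by 1 (KRT80) in SNGM, and limma voom called 0. Over all 17011 genes, 2088 reached that unadjusted threshold in Ishikawa-S33Y and 2704 in SNGM. Each of these lines has 1 shallow combination library. The smallest adjusted p was 0.104, for KRT80 in SNGM (-0.81). Leaving out Ishikawa-S33Y combination replicate 1, which leaves the shallow replicate, gave calls for KRT7 (-0.89, adjusted p = 0.022) and KRT5 (-0.70, adjusted p = 0.038), and leaving out SNGM combination replicate 1 gave calls for KRT17 (0.99, adjusted p = 0.006) and KRT80 (-1.13, adjusted p = 0.0018). In a fit to Ishikawa-S33Y alone KRT80 was called (adjusted p = 0.046).

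**Figure D4:**
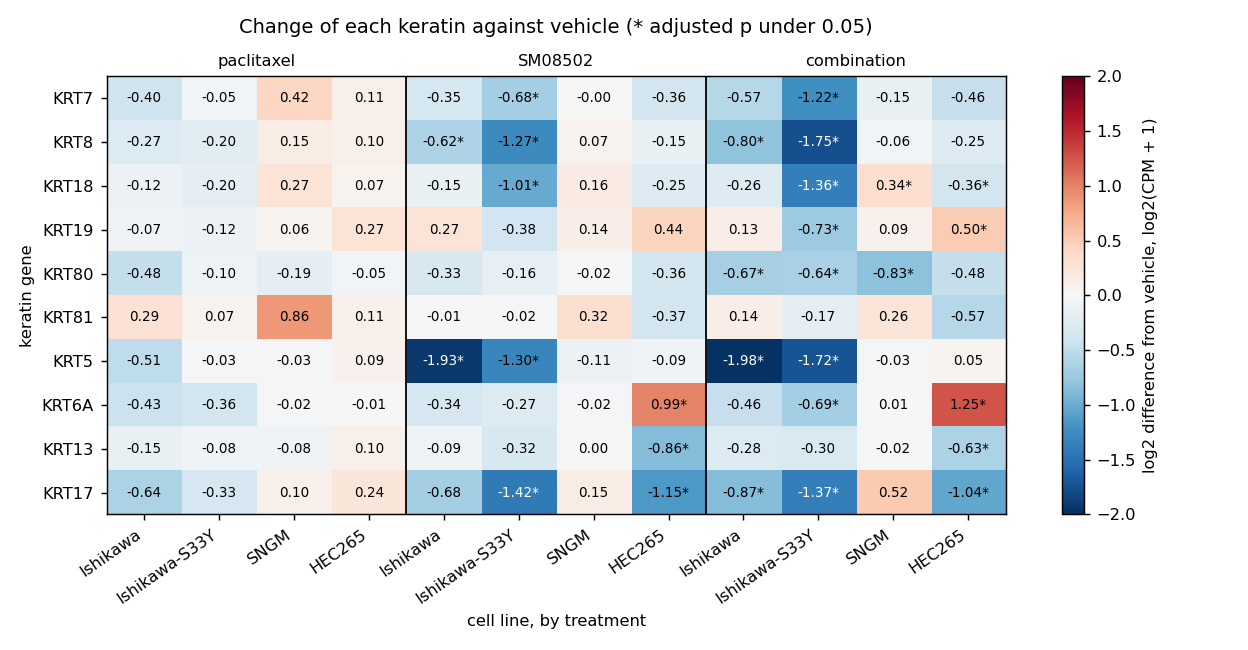
Log2 differences from vehicle of the 10 keratins with paclitaxel, SM08502 and the combination in each line, colored from blue (lower) to red (higher), with an asterisk at an adjusted p under 0.05. The paclitaxel columns hold no asterisk, the Ishikawa-S33Y columns hold 5 with SM08502 and 8 with the combination, and the HEC265 columns hold the KRT6A rises of 0.99 and 1.25.

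Other genes of squamous differentiation gave a mixed picture. Of 28 genes listed, 8 passed the filter and 19 never reached 1 CPM in any library, among them IVL (involucrin) and LOR (loricrin), defining products of the cornified envelope, with LOR at 0 throughout. In Ishikawa-S33Y against Ishikawa 4 of the 8 were higher and 1 lower (48.3% of all genes called; median 0.56, against -0.05 over all genes). FLG, filaggrin, which bundles keratin filaments in cornified cells, was at 0.108 ± 0.065 CPM in Ishikawa and 18.5 ± 0.377 in Ishikawa-S33Y (4.14, adjusted p = 1.2e-12). TP63, the transcription factor of basal cells, went the other way, 17.3 ± 2.77 against 2.35 ± 0.181 CPM (-2.44, adjusted p = 1.5e-10). FLG was at 25.0 and 22.8 CPM in SNGM and HEC265, and TP63 under 0.2 CPM in both. SM08502 lowered 5 of the 8 and raised 1 in Ishikawa-S33Y (29.1% of all genes called; median -0.58, all genes 0.11): FLG fell to 7.27 ± 0.363 CPM (-1.24, adjusted p = 0.00011), and DSC3, a desmosomal cadherin of stratified epithelium, rose from 28.3 ± 0.588 to 69.5 ± 4.35 CPM (1.27, adjusted p = 5.9e-05). In HEC265 3 fell (14.7% of all genes called), KLK5, a peptidase of squamous epithelium, by -1.40 (adjusted p = 2.4e-07) and FLG by -1.0 (adjusted p = 0.0016) the most. On vehicle KLK5 averaged 10.9 CPM in HEC265 and at most 0.095 CPM in the other lines. DSC3 and TP63 averaged at most 0.232 CPM in SNGM and HEC265. The differences and adjusted p of KLK5, DSC3 and TP63 are therefore descriptions, as for KRT5. In Ishikawa 2 fell (15.2%) and in SNGM 1 (7.86%).

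Of 14 desmosome, hemidesmosome and plakin genes that anchor keratin filaments, all were tested. Ishikawa-S33Y had 8 higher and 1 lower than Ishikawa (48.3% of all genes called; median 0.78, against -0.05 over all genes), led by PPL, periplakin (2.74, adjusted p = 3.9e-05), and PLEC, plectin (1.95, adjusted p = 0.0028). SNGM had 8 higher and 2 lower (66.8% of all genes), and HEC265 11 higher and 1 lower (63.3%), than Ishikawa. These counts share the Ishikawa vehicle libraries, where PPL was at 12.6 ± 4.37 and PLEC at 50.3 ± 24.2 CPM (SD, n = 2). Over all Ishikawa libraries, treated ones included, the 14 genes summed to 760 to 1879 CPM. With SM08502, 3 fell in Ishikawa (15.2% of all genes) and 1 in Ishikawa-S33Y, where 1 rose (29.1%), and 0 changed in SNGM (7.86%) and HEC265 (14.7%). ITGB4, the hemidesmosomal integrin chain that links to plectin, fell by -1.36 in Ishikawa (adjusted p = 0.011) and by -1.48 in Ishikawa-S33Y (adjusted p = 0.0027). With the combination it fell by -1.67 and -2.25 (adjusted p = 0.0016 and 2.6e-05).

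The 11 beta-catenin targets were all tested, 7 of them higher and 2 lower in Ishikawa-S33Y than in Ishikawa (48.3% of all genes called). AXIN2, a feedback inhibitor of the pathway, averaged 7.83 ± 0.435, 22.7 ± 1.44, 30.3 ± 2.08 and 145 ± 0.389 CPM in Ishikawa, Ishikawa-S33Y, SNGM and HEC265. LGR5, a receptor for R-spondins, was lower in Ishikawa-S33Y (-3.68, adjusted p = 3.2e-10). By vehicle means, the order of AXIN2 over the lines was that of KRT19 and KRT81, and not that of KRT8 or KRT7. KRT19 averaged 258, 121, 110 and 89.5 CPM in HEC265, SNGM, Ishikawa-S33Y and Ishikawa. KRT81 averaged 66.2, 0.459, 0.291 and 0.162 CPM in that order, and no pair without HEC265 passed the test for it. For KRT19 only SNGM against Ishikawa passed among such pairs, and that call was lost without single libraries. The order of both keratins below HEC265 is therefore not resolved. A link of any keratin to AXIN2 was not tested. With SM08502, 4 of the 11 fell in Ishikawa and 1 in HEC265, 1 fell and 1 rose in Ishikawa-S33Y, and 0 changed in SNGM. Of 10 epithelial markers, 7 were lower with SM08502 in each Ishikawa line, 1 in HEC265 and 0 in SNGM. Over all genes SM08502 called 15.2% in Ishikawa, 29.1% in its derivative, 14.7% in HEC265 and 7.86% in SNGM. MUC1, a mucin of glandular cells, fell by -1.02 in Ishikawa (adjusted p = 0.022) and by -0.99 in Ishikawa-S33Y (adjusted p = 0.014). Of the mesenchymal markers tested, 9 of 11, none rose with SM08502 in any line, while 3 fell in Ishikawa (median -0.37) and 1 in each other line, and their part in the keratin changes was not tested.

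Among the 56 other keratin symbols, 10 passed the filter and 3 reached 10 CPM. KRT10, the suprabasal type I keratin of skin, reached it in all 32 libraries, at 35.04 ± 2.12, 19.8 ± 0.688, 15.5 ± 2.09 and 14.2 ± 1.25 CPM on vehicle in Ishikawa, Ishikawa-S33Y, SNGM and HEC265. KRT15, a basal type I keratin, stood at 3.29 ± 0.121, 1.34 ± 0.008, 9.504 ± 2.003 and 6.01 ± 0.370 CPM, and KRT23, an epithelial type I keratin, at 8.96 ± 1.81, 3.76 ± 0.397, 0.274 ± 0.027 and 5.93 ± 0.683 CPM. KRT10, KRT15 and KRT23 were each lower in Ishikawa-S33Y than in Ishikawa (-0.79, -0.88 and -1.05). With SM08502 none of the 3 passed in any line. In Ishikawa-S33Y KRT10 read 33.7 and 34.4 CPM with the combination, against 19.3 and 20.3 on vehicle. KRT15 read 0.771 and 1.00 CPM there against 1.33 and 1.34, and KRT23 4.01 and 4.35 CPM against 4.04 and 3.48. KRT14 and KRT16, the usual partners of KRT5 and KRT6A in skin, reached at most 0.130 and 0.649 CPM.

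Over the 16 group means, the genes whose log2(CPM + 1) followed each keratin most closely were found among 14395 candidates outside the keratin symbols. The points share the lines and the library totals, so these are descriptions. SEMA3B was first for both KRT8 (Pearson r 0.992) and KRT18 (0.975), which followed each other at 0.987. KRT6A was followed by NQO1 (0.974) and KEAP1 (0.968), KRT19 by PCBD1 (0.985), KRT7 by AP3S1 (0.993) and KRT81 by ANXA8L1 (0.994). KRT17 was followed by NAALADL2 (0.983), KRT13 by ACKR2 (0.980), KRT5 by CLUL1 (0.964) and KRT80 by CTSZ (0.890), the lowest of the first-ranked values.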

How the data were processed

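RNA was sequenced from 32 libraries after ribosomal RNA depletion with FastSelect and preparation with the KAPA mRNA HyperPrep kit, per the labels' protocols. The submitters' processing notes name bcl2fastq, kallisto, STAR and GRCh38, without roles or versions. The authors deposited log10 of CPM plus 1 for 35238 genes, and the splicing tables they mention were not analysed here.

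Values were taken back to CPM. Whole reads were recovered for 100% of values above 0 (tolerance 0.05 read) and gave the depth and the exact intervals, which cover counting error only. The deposited unit was log10 where log2 had been assumed, so log2(CPM + 1) was computed from CPM; it understates changes of low genes. Genes above 1 CPM in at least 2 libraries (17011) entered 1 limma model (limma 3.58.1, R 4.3.3) with 16 group means, empirical Bayes moderation and an intensity trend, with 16 residual and 4.9 prior degrees of freedom. Tests were two-sided, with Benjamini-Hochberg adjustment over the 17011 genes in each of 28 contrasts and 3 moderated F tests, and calls at an adjusted p under 0.05. Group values are mean ± SD, and composition has no test. The procedure was tested on simulated data.

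The keratins, lists and alternatives were chosen with earlier results of these data known. All 10 keratins are named, as are other keratins reaching 10 CPM, up to 2 called genes with the largest change per list and comparison (the comparisons shown were selected), defining markers, and the best-ranked genes by correlation; KRT14 and KRT16 were added after their values were seen. Alternatives were a pseudocount of 0.1, no filter (30872 genes), a stricter one (mean log2(CPM + 1) at or above 2, 12118 genes), median re-centring, quantile normalization, no trend, fits to the compared lines alone, a replicate block, pseudogene reads added to composition, and leaving out each library. Limma voom on recovered reads and a crossed replicate block were added after seeing the data.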

Additional observations from a re-analysis of the deposited data

Results flagged for a closer look

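The keratins below responded differently in different lines by a test of the difference itself, limma's moderated F test over the 4 lines or the contrast of Ishikawa-S33Y with Ishikawa. For SM08502 the adjusted p of the F test was 0.003516 for KRT8 (changes of -1.27 in Ishikawa-S33Y, -0.62 in Ishikawa, -0.15 in HEC265 and 0.07 in SNGM), 0.000377 for KRT18, 0.0001381 for KRT5 and 0.01286 for KRT6A. It was 0.04333 for KRT19, 0.04469 for KRT13, which passed the filter only through HEC265 libraries, and 0.0403 for KRT17. The SM08502 calls of KRT19, KRT13, KRT17 and KRT6A were lost in fits without single libraries, and that of KRT6A also with a pseudocount of 0.1. Over all genes the F test called 12.4% for SM08502 and 27.1% for the combination. The values of KRT5 and KRT13 are descriptions, and so are the F tests of KRT6A and KRT17. These genes passed the filter through the lines where they were high. For the combination it was 0.0001344 for KRT8, 2.96e-06 for KRT18, 0.001387 for KRT19, 7.788e-06 for KRT5, 0.0003086 for KRT6A and 0.005786 for KRT17. On vehicle KRT5 was at most 0.234 CPM in SNGM and 0.312 CPM in HEC265. KRT17 was at most 0.415 CPM and KRT13 at most 0.117 CPM in SNGM on vehicle, and SNGM gave 1 read of KRT6A. Such low values limit the size of a fall on this scale. The KRT5 call for SM08502 was lost with a pseudocount of 0.1 (adjusted p = 0.235) and with limma voom (0.0736). The change in Ishikawa-S33Y minus that in Ishikawa was -0.8636 for KRT18 with SM08502, and -0.9474 for KRT8, -1.101 for KRT18 and -0.8614 for KRT19 with the combination. This contrast called 2.43% of all genes for SM08502 and 10.5% for the combination. The KRT18 call with SM08502 and the KRT8 and KRT19 calls with the combination were lost in fits without single libraries. With 2 libraries a group, no group was tested for a single library standing apart.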

How the results depend on the processing

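Of 310 keratin tests, 101 were called, 144 were called in at least 1 fit, and 72 of the 101 stayed called in every alternative that tested them; no called value changed direction. Calls between lines numbered 42 of 60 (27 with the stricter filter, which keeps 6 keratins and so 36 tests; 40 to 42 without single libraries). SM08502 gave 10 calls of 40 (16 with limma voom; 9 to 12), the combination 19 of 40 (16 to 21), the means of lines 6 and 7 of 10, and the F tests 13 of 30 (9 to 14). Paclitaxel gave 0 (0 to 3; 3 without Ishikawa paclitaxel replicate 1). The combination against SM08502 gave 0 (1 in fits to 1 line; 0 to 2). Ishikawa-S33Y minus Ishikawa gave 4 of 30 (2 in a fit to those lines; 2 to 5, with 2 without Ishikawa vehicle replicate 2 or Ishikawa-S33Y combination replicate 2). The cause of these shifts was not tested.

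Among tests called in some fit, the uncalled values that changed sign were KRT13 in SNGM against Ishikawa-S33Y (0.01133 with quantile normalization) and KRT17 for the combination against SM08502 in SNGM (-0.3272 with limma voom; -0.2411 to 0.9885 without single libraries). Without single libraries, ranges were -0.01391 to 0.1696 for KRT6A in HEC265 against Ishikawa, -0.7223 to 0.06607 for KRT80 with SM08502 in Ishikawa, -0.09516 to 1.134 for KRT17 with the combination in SNGM, and, with paclitaxel in Ishikawa, -0.8922 to 0.03113 for KRT6A and -0.6038 to 0.05757 for KRT8. Of the 166 tests called in no fit, 70 changed sign in some alternative.

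Same-numbered libraries of a line deviated together with r from -0.65 to 0.86 over 6083 genes, so the numbers do not pair them. The replicate block gave 43, 12, 0, 19, 0 and 13 calls for the lines, SM08502, paclitaxel, the combination, the combination against SM08502 and the F tests, with 4 for Ishikawa-S33Y minus Ishikawa and 6 and 7 in the means. With crossed numbers these were 43, 11, 0, 21, 0, 14, 4, 6 and 7. The planned count tests with edgeR and DESeq2 were not run; limma voom on recovered reads was run in their place. Where an arm keeps 1 library, it is assumed to vary like the other groups. Each group had 2 libraries, and 2 libraries were shallow. Changes under 1.00 CPM were not detectable in Ishikawa-S33Y combination replicate 2, nor changes under 1.87 CPM in SNGM combination replicate 2, where these values equal 3 reads.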
